A study of Mus musculus with 5 samples.

Results

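Genes that regulate, make, take up, store and export cholesterol were followed through 5 pools of mouse liver RNA. There were 34 of them, listed by name, out of 28090 gene names on the array. All 34 were found, with 64 probes between them, and all 34 were well above background on all 5 arrays. Each gene stands for its brightest probe. The livers came from male C57BL/6J mice aged 25 weeks, and RNA of 5 mice per group was pooled and put on 1 array. The control group was untreated. HFHFr-F mice ate a diet rich in fat and fructose (HFHFr) for 20 weeks. HFHFr-N, HFHFr-FA and HFHFr-NA mice ate it for 16 weeks, and then for 4 weeks ate normal diet (HFHFr-N), HFHFr diet with all-trans retinoic acid (HFHFr-FA) or normal diet with all-trans retinoic acid (HFHFr-NA). All-trans retinoic acid is the form of vitamin A that binds the retinoic acid receptors. The labels call HFHFr-F mice severely insulin resistant, HFHFr-N mice insulin resistant, HFHFr-NA mice recovered, and HFHFr-FA mice free of insulin resistance with slight steatosis.

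With 1 pool per group there was no replicate, no test and no standard deviation between samples, so "higher" and "lower" describe these pools only. A level is given as relative signal, the processed intensity divided by the 75th percentile of its array, and it can be compared between pools but not between genes. A log2 ratio is given with the error of the scanner software's model, which assigns each spot an error of 10% to 12% and each ratio between 0.20 and 0.24. That error leaves out differences between mice and between arrays. Genes were counted when they were at least 2-fold apart. The array of HFHFr-FA was the sole one on its slide, and for its comparisons the slide cannot be told apart from the group. All 8 hepatocyte markers were well above background on every array, and 0 of 4 adipocyte markers were on any.

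Cholesterol is built from acetyl-CoA through mevalonate, farnesyl diphosphate, squalene and lanosterol. The membrane-bound transcription factor SREBP2, the product of Srebf2, switches on most genes of this route when sterols in the endoplasmic reticulum fall. SCAP escorts it to the Golgi for cleavage, and the INSIG proteins hold SCAP back when sterols are plentiful. Liver takes up sterol from lipoproteins, stores it as esters, and sends it out to high-density lipoprotein and bile, and the export pumps are targets of the liver X receptors.

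The stretch around the transcription start, where SREBP2 and its partner NF-Y are known to bind, was available from RefSeq (GRCm38.p6) for 26 of the 34 genes, as 250 bases before the start and 50 after it. An exact match to TCACNCCAC (or GTGGNGTGA on the other strand), a form of the sterol regulatory element, was in 1 of the 26 genes (3.85%), Hmgcs1. Among 7434 genes that had a window and were well above background on all 5 arrays, 1.59% held it. Other forms of the element were not searched for. No window was available for Sqle, Fdps and Abcg1, which were at least 2-fold higher in HFHFr-F. The NF-Y box CCAAT, or ATTGG, was in at least 1 window of 23 of the 26 genes (88.5%), against 42.5% of the same 7434 genes. The Sp1 box GGGCGG, or CCGCCC, was in 21 of 26 (80.8%), against 67%. None of the 3 motifs contains another, a match is a description and not a binding site, and the windows of Abcg5 and of 1 start of Abcg8 share 209 bases. The windows of Hmgcs1, which holds the match to TCACNCCAC, and of 3 enzymes at least 2-fold higher in HFHFr-F (Mvd, Nsdhl and Sc4mol) are shown, chosen after their values were seen. They lie at chr13:119690101-119690400 (plus strand), chr8:122443373-122443672 (minus), chrX:72918271-72918570 (plus) and chr8:64733529-64733828 (minus), and capitals mark the match to TCACNCCAC and the NF-Y boxes.
Hmgcs1: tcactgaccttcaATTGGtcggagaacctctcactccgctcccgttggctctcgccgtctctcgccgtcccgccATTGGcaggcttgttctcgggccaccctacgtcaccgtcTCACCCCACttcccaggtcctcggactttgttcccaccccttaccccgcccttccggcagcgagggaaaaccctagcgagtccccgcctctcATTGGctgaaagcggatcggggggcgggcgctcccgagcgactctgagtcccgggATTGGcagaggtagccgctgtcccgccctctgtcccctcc
Mvd: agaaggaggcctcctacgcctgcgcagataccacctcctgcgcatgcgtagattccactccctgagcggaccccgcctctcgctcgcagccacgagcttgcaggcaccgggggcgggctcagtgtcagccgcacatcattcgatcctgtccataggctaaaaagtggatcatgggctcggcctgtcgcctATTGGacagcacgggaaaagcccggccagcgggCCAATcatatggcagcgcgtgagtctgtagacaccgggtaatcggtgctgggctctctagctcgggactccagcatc
Nsdhl: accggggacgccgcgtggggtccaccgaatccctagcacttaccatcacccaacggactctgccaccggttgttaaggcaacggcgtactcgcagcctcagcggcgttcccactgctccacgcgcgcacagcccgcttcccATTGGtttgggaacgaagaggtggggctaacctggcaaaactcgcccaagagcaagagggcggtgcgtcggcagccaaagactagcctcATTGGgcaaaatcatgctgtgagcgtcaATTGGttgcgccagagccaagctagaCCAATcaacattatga
Sc4mol: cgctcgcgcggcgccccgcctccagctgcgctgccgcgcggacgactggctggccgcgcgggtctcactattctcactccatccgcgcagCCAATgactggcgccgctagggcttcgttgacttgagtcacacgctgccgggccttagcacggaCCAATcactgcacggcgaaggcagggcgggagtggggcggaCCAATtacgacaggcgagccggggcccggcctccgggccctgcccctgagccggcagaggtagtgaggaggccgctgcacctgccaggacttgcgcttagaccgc

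Of the 34 chosen probes, 4 span far more of the genome, in the files' mm9 coordinates, than the 60 bases of a probe. Exon annotation of that build was not used here. The probes of Mvk (chr5:114905993-114908940) and Fdps (chr3:88898812-88898952), both at least 2-fold higher in HFHFr-F, are of this kind and are shown for that reason.
Mvk: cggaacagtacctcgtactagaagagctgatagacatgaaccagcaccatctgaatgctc
Fdps: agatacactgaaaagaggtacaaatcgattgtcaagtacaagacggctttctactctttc
Both Idi1 probes are placed on chromosome 2 by the files, while RefSeq has the gene on chromosome 13, and signal from near-identical copies of Idi1, Fdps or Acat2 was not separated.

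Across the 5 pools the enzymes of synthesis had their own range and order of levels. The brightest pool exceeded the dimmest by a median of 2.36-fold over the 19 enzymes and 1.79-fold over all 34 genes, against 1.48-fold over the 12964 genes well above background on all arrays. Among the 19 enzymes 13 were highest in HFHFr-F, while 16.7% of the 12964 genes were highest there. HFHFr-N was the lowest pool for 6 of the enzymes, and 10.3% of all genes were lowest there. Of the other 15 genes 3 were highest in HFHFr-F and 3 were lowest in HFHFr-N. At the extremes, Sqle (squalene epoxidase) differed 8.68-fold between its brightest and dimmest pool. Ggps1, which makes geranylgeranyl diphosphate on a branch away from sterols, differed 1.08-fold.

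**Figure D1:**
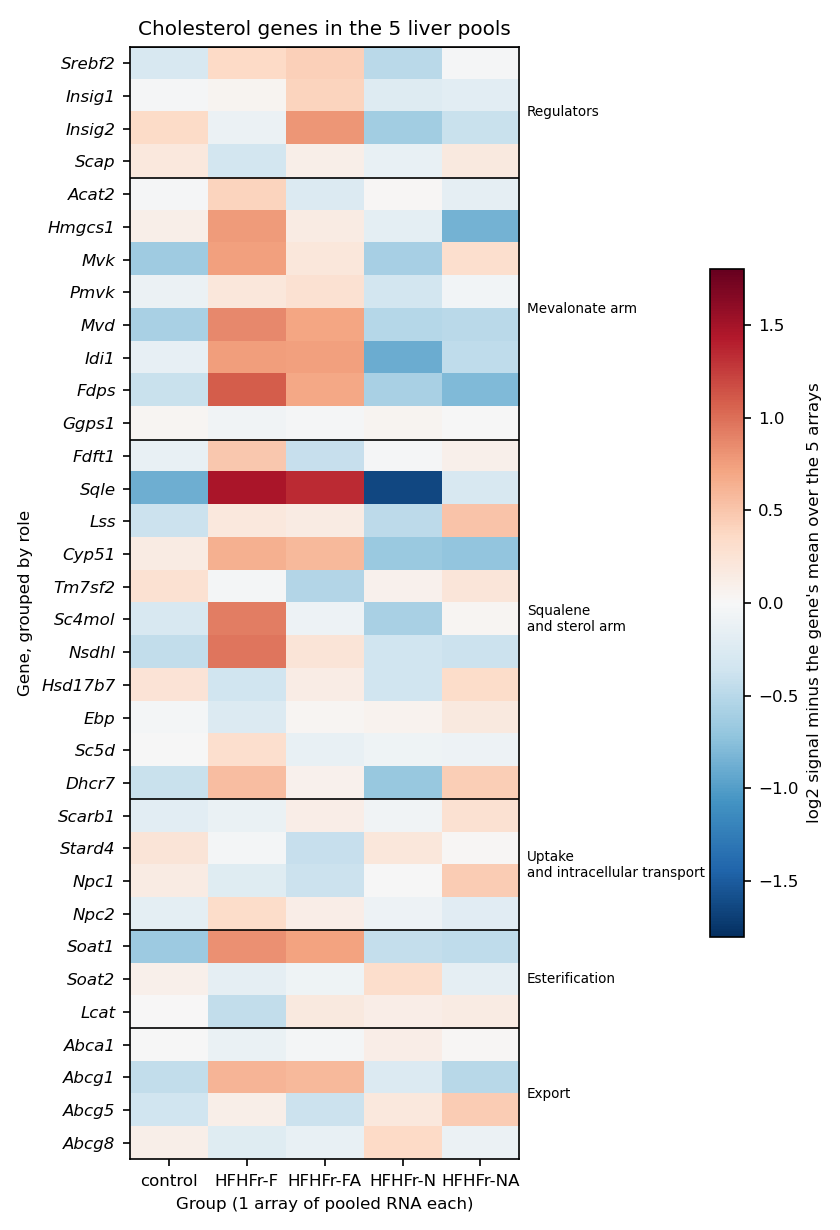
Signal of the 34 genes (rows, by role) in the 5 liver pools (columns, 1 array each), as log2 signal minus the gene's mean over the 5 arrays. HFHFr-F is the highest column for 13 of the 19 enzymes, and the widest row is Sqle, with 8.68-fold between HFHFr-F and HFHFr-N.

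HFHFr-F was set against control to ask what the whole period on the diet left in this pathway. Some enzymes of the mevalonate and sterol arms, Soat1 and Abcg1 were at least 2-fold higher in the HFHFr-F pool. Of the 34 genes 8 were at least 2-fold higher, where 5.46% of 14431 measured genes were, and 0 were at least 2-fold lower, where 3.22% were. The median log2 ratio was 0.44 over the 34 genes and -0.08 over all measured genes. Of the 19 enzymes 15 had a ratio above 0, and their median was 0.63.

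In the mevalonate arm, 3 of 8 enzymes were at least 2-fold higher. Mvk, mevalonate kinase, had a relative signal of 0.318 in control, 0.828 in HFHFr-F, 0.567 in HFHFr-FA, 0.325 in HFHFr-N and 0.609 in HFHFr-NA. It was highest in HFHFr-F, with control and HFHFr-N close together at the bottom, and the log2 ratio of HFHFr-F to control was 1.38 ± 0.23 (error model). Its second probe gave 0.91.
Mvd, the decarboxylase that makes isopentenyl diphosphate (chr8:124957750-124957809, mm9), read 0.337 in control, 0.927 in HFHFr-F, 0.832 in HFHFr-FA, 0.355 in HFHFr-N and 0.364 in HFHFr-NA. The pools fell into a high pair that ended on HFHFr diet and a low trio, and the ratio to control was 1.46 in HFHFr-F. Fdps, farnesyl diphosphate synthase, read 1.72 in control, 4.84 in HFHFr-F, 3.67 in HFHFr-FA, 1.51 in HFHFr-N and 1.31 in HFHFr-NA, the same split, with a ratio of 1.49. The other mevalonate enzymes were under 2-fold apart from control. Idi1, which isomerises isopentenyl diphosphate, had a ratio of 0.91, with 0.26 from its second probe. Hmgcs1, the synthase of HMG-CoA, had 0.66, and 5 measured spots around its own had a median of -0.40 in the same comparison. Acat2, the thiolase that opens the route, had 0.41, Pmvk (phosphomevalonate kinase) 0.32 and Ggps1 -0.10.

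Further along, 3 of 11 enzymes of the squalene and sterol arm were at least 2-fold higher. Sqle, which makes the epoxide of squalene in a rate-limiting step (chr15:59162384-59162443, mm9), read 0.789 in control, 4.03 in HFHFr-F, 3.68 in HFHFr-FA, 0.464 in HFHFr-N and 1.19 in HFHFr-NA. The HFHFr-F and HFHFr-FA pools were far above the other pools, and HFHFr-F exceeded control by 5.11-fold, a log2 ratio of 2.35 ± 0.21 (error model). Sqle, like Mvd, Sc4mol and Abcg1, has 1 probe on the array, so no other probe could be set beside its values. Sc4mol, the C4-methyl sterol oxidase now called Msmo1, read 16.6 in control, 38.4 in HFHFr-F, 19.0 in HFHFr-FA, 13.5 in HFHFr-N and 20.7 in HFHFr-NA. HFHFr-F stood alone at the top for this gene, with a ratio to control of 1.21. Nsdhl, the dehydrogenase that works with it on the C4-methyl groups (chrX:70203236-70203295, mm9), read 0.292 in control, 0.778 in HFHFr-F, 0.466 in HFHFr-FA, 0.309 in HFHFr-N and 0.302 in HFHFr-NA. Its ratio to control in HFHFr-F was 1.41, and its other measured probes gave 1.0 and 1.01, while another probe was below background.

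The last reductase of the route, Dhcr7, came close to the threshold with 0.95 (0.83 from its second probe). Smaller ratios were found for Fdft1 (squalene synthase) at 0.63, Lss (lanosterol synthase) at 0.57, Cyp51 (lanosterol 14-demethylase) at 0.49 and Sc5d (a sterol desaturase) at 0.32. Other measured probes gave 0.63 and 0.02 for Lss, 0.21 and 0.16 for Cyp51, and 0.27 for Sc5d. The ratios of Hsd17b7, the ketosteroid reductase of the C4-demethylating complex (-0.60), Tm7sf2, a sterol reductase (-0.32), and Ebp, the sterol isomerase (-0.21), were below 0. Enzymes of this arm did not all lie on the same side of control.

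Part of these counts depended on the background correction. The alternative, normexp, was run with a constant of 50 added to every signal. In control the processed signals of Mvk (55.2), Mvd (58.7) and Nsdhl (50.8) were hardly larger than that constant. Its part in the lower ratios was not tested. With normexp correction of the mean signal the ratio to control was 0.79 for Mvk, 0.75 for Mvd and 0.87 for Abcg1, each under 2-fold, and 4 of the 34 genes were at least 2-fold higher. Nsdhl was under 2-fold with normexp and, at 0.79, with the mean of all its probes. Sqle (1.93), Fdps (1.39) and Sc4mol (at least 1.21) stayed past 2-fold under every alternative.

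**Figure D2:**
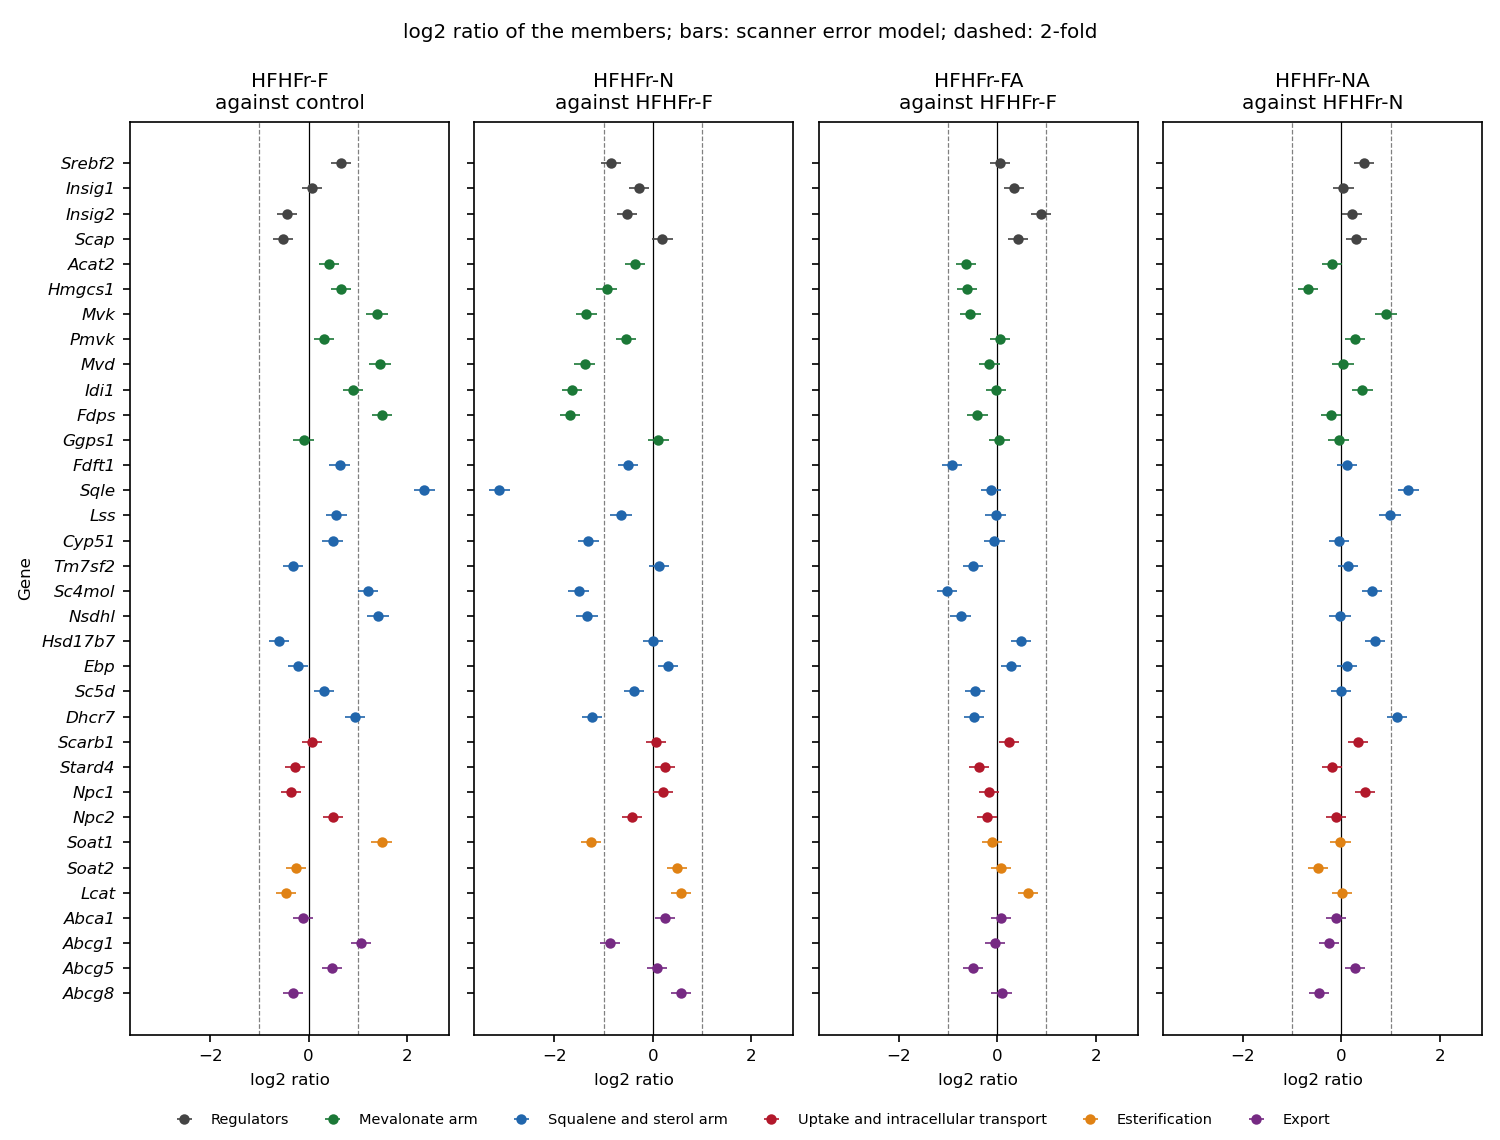
Log2 ratio of each of the 34 genes (rows, coloured by role) in 4 comparisons (panels); dots are 1 array over 1 array, bars the scanner error model, and dashed lines mark 2-fold. In HFHFr-F against control Sqle lies furthest right at 2.35, and in HFHFr-N against HFHFr-F furthest left at -3.12.

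Regulators were under 2-fold apart between HFHFr-F and control, for 4 of 4 genes. Srebf2 itself read 5.14 in control, 8.11 in HFHFr-F, 8.46 in HFHFr-FA, 4.52 in HFHFr-N and 6.23 in HFHFr-NA. By this probe its highest pools were those that ended on HFHFr diet, and the ratio of HFHFr-F to control was 0.66, with 0.38 and 0.59 from its other measured probes. For HFHFr-FA against control the chosen probe gave 0.72 and those same probes 0.01 and 0.79, so the place of HFHFr-FA depended on the probe. Insig1, an SREBP target in most cells, had a ratio of 0.06. Scap had -0.52.

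Insig2, whose liver transcript insulin is known to lower, had a pattern unlike that of the enzymes. It read 75.9 in control, 56.0 in HFHFr-F, 103.7 in HFHFr-FA, 39.0 in HFHFr-N and 45.4 in HFHFr-NA. HFHFr-FA was the highest pool and HFHFr-N the lowest, 2.66-fold apart, with control between them. The second Insig2 probe gave log2 ratios within 0.13 of the chosen probe in every comparison.

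Mice returned to normal diet (HFHFr-N) were set against HFHFr-F, and against control for what remained. Both use an array named in the HFHFr-F against control comparison, so their values are not independent of it. In HFHFr-N 10 of the 34 genes were at least 2-fold lower than in HFHFr-F, where 3.68% of 14602 genes were, and 0 were at least 2-fold higher, where 2.17% were (5.86% in either direction). The median log2 ratio was -0.46 over the 34 genes and 0.10 over all genes. Among the 19 enzymes 9 were at least 2-fold lower, with a median of -0.94.

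Sqle had the lowest ratio, -3.12, an 8.68-fold difference. The ratio was -1.68 for Fdps, -1.64 for Idi1, -1.51 for Sc4mol, -1.38 for Mvd, -1.35 for Mvk and -1.33 for Nsdhl. Outside the enzymes Soat1 had -1.26. From their second probes Idi1 gave -0.85 and Mvk -0.72, both under 2-fold. Cyp51 (-1.31, with -0.82 and -0.90 from its other probes) and Dhcr7 (-1.24, with -1.32) were also at least 2-fold lower by their chosen probes. Neither Cyp51 nor Dhcr7 had reached 2-fold in HFHFr-F against control. Hmgcs1 (-0.94), Abcg1 (-0.86) and Srebf2 (-0.84) were just under the threshold. With normexp correction the ratio was -0.80 for Mvk, -0.85 for Mvd and -0.95 for Cyp51, Nsdhl and Soat1 were under 2-fold too, Hmgcs1 passed it, and 6 genes in all were at least 2-fold lower.

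Against control, 0 of the 34 genes in HFHFr-N were at least 2-fold higher or lower, where 1.17% and 0.824% of 14313 genes were. The lowest ratios were those of Insig2 at -0.96 (-0.998 from its second probe), Cyp51 at -0.82, Sqle at -0.76 and Idi1 at -0.73. All 4 regulators and 12 of 19 enzymes had a ratio below 0 by their chosen probes. Insig1 had -0.21, with 0.08 from its second probe, and the Srebf2 ratio, -0.19, lay inside its scanner error of 0.20. Mvk (0.03), Mvd (0.07) and Nsdhl (0.08), each at least 2-fold higher in HFHFr-F, read nearly the same in HFHFr-N as in control by their chosen probes. The other measured Nsdhl probes gave -0.44 and 5.3e-05, and the second Mvk probe gave 0.19.

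**Figure D3:**
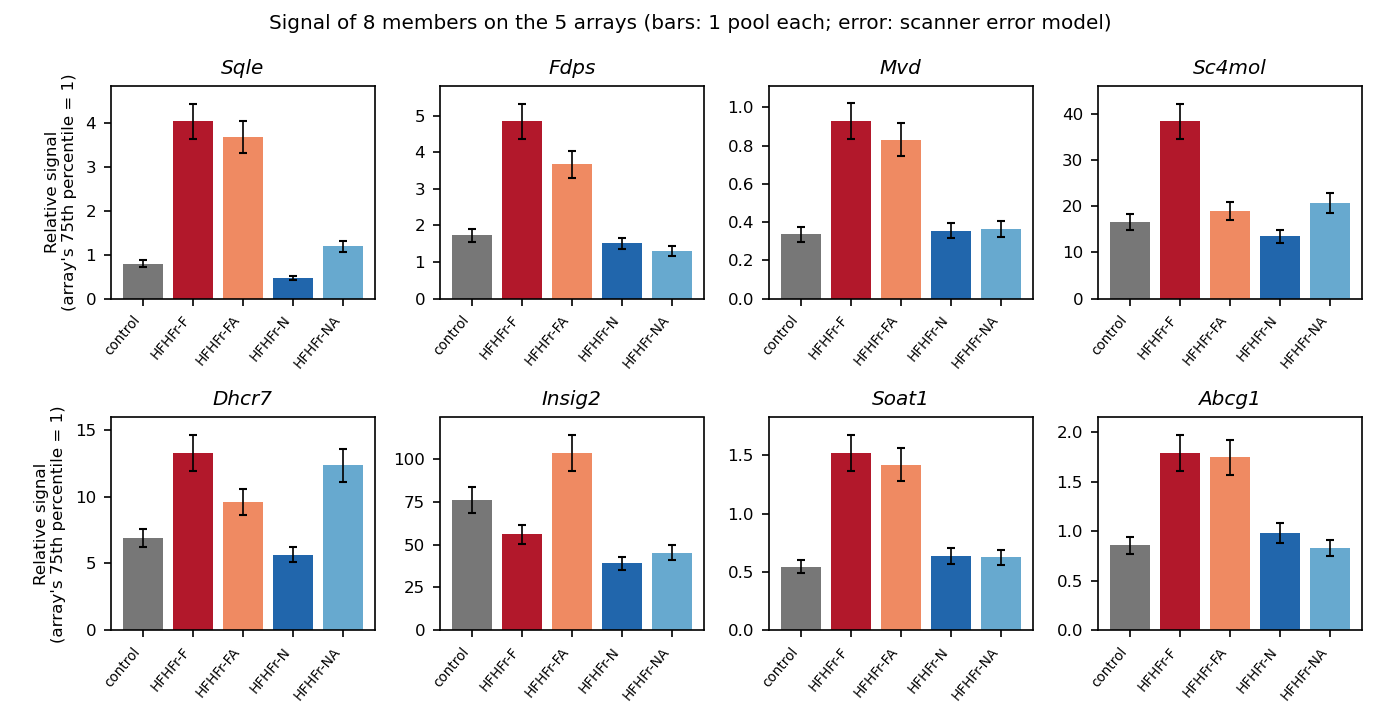
Relative signal of 8 of the genes on the 5 arrays (bars, 1 pool each; error bars from the scanner error model; array's 75th percentile = 1). Sqle, Fdps and Mvd are high in both HFHFr-F and HFHFr-FA, Sc4mol in HFHFr-F alone (38.4 against 19.0 in HFHFr-FA), and Insig2 is highest in HFHFr-FA at 103.7.

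HFHFr-FA was set against HFHFr-F for retinoic acid given while the diet went on. Here 1 of the 34 genes was at least 2-fold lower, Sc4mol at -1.02, where 2.87% of 14720 genes were. Of the 34, 0 were at least 2-fold higher, where 2.72% were (5.59% in either direction). The ratio of Sc4mol was -0.97 at the closest to 0, under 2-fold with quantile normalization and with cyclic loess. The median was -0.08, and 0.03 over all genes. Among the enzymes 15 of 19 had a ratio below 0, with a median of -0.40, while all 4 regulators had one above 0 by their chosen probes. The Srebf2 ratio, 0.06, lay inside its scanner error of 0.20, and its other measured probes gave -0.37 and 0.19. Insig1 had 0.35, with 0.01 from its second probe.

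Some enzymes read much the same in both pools, most of the others were lower in HFHFr-FA, and a few were higher. The ratio was -0.13 for Sqle, -0.02 for Idi1, -0.16 for Mvd, -0.03 for Lss and -0.05 for Cyp51, each inside the error of the scanner model, although the second Idi1 probe gave 0.57. Lower by more than that error by their chosen probes, beside Sc4mol, were Fdft1 (-0.91), Nsdhl (-0.74), Acat2 (-0.64), Hmgcs1 (-0.62), Mvk (-0.55), Tm7sf2 (-0.49), Dhcr7 (-0.47), Sc5d (-0.44) and Fdps (-0.40). Hsd17b7 (0.49) and Ebp (0.27) were higher by more than that error. The second probes of Fdps (0.34) and Sc5d (0.03) did not give a lower value, while those of Mvk (-0.54) and Dhcr7 (-0.48) did. Fdft1, the enzyme that commits farnesyl diphosphate to sterols, read 6.04 in control, 9.34 in HFHFr-F, 4.97 in HFHFr-FA, 6.58 in HFHFr-N and 7.08 in HFHFr-NA. HFHFr-F was its highest pool and HFHFr-FA its lowest. In HFHFr-FA the signal of Fdft1 was 53.3% of that in HFHFr-F, and that of Sqle, the next enzyme on the route, was 91.3%. The measured spots around Fdft1 had a median log2 ratio of -0.32 in this comparison and those around Sqle -0.02, and their part in the values was not tested. Insig2 had the highest ratio of the 34 genes, 0.89, with 0.85 from its second probe. Lcat, which makes cholesteryl esters in plasma, followed with 0.63.

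Against control, 5 genes in HFHFr-FA were at least 2-fold higher, where 4.50% of 14592 genes were, and 0 were at least 2-fold lower, where 1.96% were (6.46% in either direction). They were Sqle (2.22), Soat1 (1.39), Mvd (1.3), Fdps (1.09) and Abcg1 (1.03). Nsdhl (0.67), Mvk (0.84) and Sc4mol (0.20) were under 2-fold. With normexp correction only Sqle was at least 2-fold higher, and Abcg1 was under 2-fold with median centring too. This comparison shares its control array with the others against control and its HFHFr-FA array with the one just described.

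HFHFr-NA was set against HFHFr-N for retinoic acid given with normal diet. Sqle and Dhcr7 were the 2 genes at least 2-fold higher, where 1.53% of 14674 genes were, and 0 were at least 2-fold lower, where 1.36% were (2.89% in either direction). The median was 0.07, and 0.02 over all genes. Sqle had a ratio of 1.36 ± 0.21 (error model), and its HFHFr-NA level lay between those of HFHFr-N and HFHFr-F. Dhcr7 read 6.90 in control, 13.3 in HFHFr-F, 9.61 in HFHFr-FA, 5.64 in HFHFr-N and 12.4 in HFHFr-NA. Its HFHFr-NA pool lay close to HFHFr-F and well above HFHFr-N, with a ratio to HFHFr-N of 1.13 and 1.04 from the second probe. With normexp correction both ratios were just under 2-fold, 0.94 for Sqle and 0.995 for Dhcr7.

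Other enzymes of this comparison depended on the probe. Lss had 0.99 from its brightest probe and 0.45 and -0.10 from its other probes. Mvk had 0.91 and 0.04. Idi1 had 0.43 from the chosen probe and 1.58 from the other one. Hmgcs1 had the lowest ratio of the 34 genes, -0.67. It read 30.7 in control, 48.5 in HFHFr-F, 31.6 in HFHFr-FA, 25.3 in HFHFr-N and 15.9 in HFHFr-NA, so HFHFr-NA was its lowest pool. All 4 regulators had ratios above 0 by their chosen probes, from 0.04 for Insig1 to 0.46 for Srebf2, but the second Insig1 probe gave -0.56.

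Against control, 0 of the 34 genes in HFHFr-NA were at least 2-fold higher or lower, where 2.02% and 1.45% of 14524 genes were (3.46% together). The furthest were Hmgcs1 at -0.95 and Mvk at 0.94, with 0.23 from the second Mvk probe. The probes also differed for Idi1 (-0.31 and 0.99), for Lss (0.90, and -0.43 from another probe) and for Nsdhl (0.05, and -0.55 from one of its others). The spots around that of Hmgcs1 had a median of -0.59 in this comparison, over 5 measured neighbours, and their part in its value was not tested. Side by side, the ratios with retinoic acid on HFHFr diet and on normal diet were -0.13 and 1.36 for Sqle, -0.47 and 1.13 for Dhcr7, -1.02 and 0.62 for Sc4mol, and -0.55 and 0.91 for Mvk (-0.54 and 0.04 from its second probe). Other enzymes had the same sign on both diets by their chosen probes, with -0.62 and -0.67 for Hmgcs1, -0.64 and -0.19 for Acat2, -0.40 and -0.21 for Fdps, and 0.49 and 0.69 for Hsd17b7. On normal diet the Acat2 value lay inside its scanner error of 0.20, and that of Fdps about equalled its error of 0.21. The second Fdps probe gave 0.34 on HFHFr diet. The difference between the 2 diets was not tested, since each value rests on 2 arrays.

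Genes of uptake and transport inside the cell differed by less than 2-fold. Scarb1, the receptor for high-density lipoprotein, read 22.5 in control, 23.5 in HFHFr-F, 27.8 in HFHFr-FA, 24.5 in HFHFr-N and 31.0 in HFHFr-NA, a range of 1.38-fold with control lowest and HFHFr-NA highest. Stard4, a carrier of sterol between membranes, ranged over 1.56-fold and was lowest in HFHFr-FA by its chosen probe. Its other probes put HFHFr-F below HFHFr-FA, with ratios of HFHFr-FA to HFHFr-F of 0.45 and 0.13 against -0.37 from the chosen one. Npc1 and Npc2 together move cholesterol out of lysosomes. Npc1 was lowest in HFHFr-FA (2.09) and highest in HFHFr-NA (3.75), and Npc2 was lowest in HFHFr-NA (7.91) and highest in HFHFr-F (11.4), so the partners did not follow the same order. Of these 4 genes 0 reached 2-fold in any of the 7 comparisons.

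Among the genes that esterify cholesterol, Soat1 and Soat2 differed from each other. Soat1, the acyltransferase of macrophages and many other cells, read 0.544 in control, 1.52 in HFHFr-F, 1.42 in HFHFr-FA, 0.636 in HFHFr-N and 0.626 in HFHFr-NA. The pair of pools that ended on HFHFr diet was high and the other 3 pools were low, with a ratio of HFHFr-F to control of 1.48. With the mean of all 3 Soat1 probes, of which the other pair was below background, it was 0.50. Soat2, the acyltransferase typical of hepatocytes, read 1.33 in control, 1.11 in HFHFr-F, 1.17 in HFHFr-FA, 1.55 in HFHFr-N and 1.11 in HFHFr-NA, with HFHFr-F lowest and a ratio of -0.26. Lcat had a ratio of -0.45 in HFHFr-F against control.

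Of the export pumps only Abcg1 reached 2-fold in any of the 7 comparisons. Abcg1, which loads high-density lipoprotein and is prominent in macrophages, read 0.858 in control, 1.79 in HFHFr-F, 1.75 in HFHFr-FA, 0.985 in HFHFr-N and 0.830 in HFHFr-NA. It followed the same high pair as Soat1, with a ratio of 1.06 in HFHFr-F against control. Abca1, which lipidates apolipoprotein A-I, stayed between 14.3 in HFHFr-F and 16.9 in HFHFr-N, a range of 1.18-fold. Abcg5 and Abcg8 form 1 pump into bile. Abcg5 read 40.4 in control, 55.9 in HFHFr-F, 39.8 in HFHFr-FA, 59.3 in HFHFr-N and 71.3 in HFHFr-NA. Abcg8 read 0.840 in control, 0.673 in HFHFr-F, 0.716 in HFHFr-FA, 1.0 in HFHFr-N and 0.730 in HFHFr-NA. HFHFr-NA was the highest pool for Abcg5 and HFHFr-N for Abcg8, and in HFHFr-F against control their ratios were 0.47 and -0.32.

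Some macrophage markers were higher in the pools where Soat1 and Abcg1 were high. In HFHFr-F 4 of 10 Kupffer cell and macrophage markers were at least 2-fold higher than in control, with a median of 0.96, while Clec4f (0.13), Vsig4 (0.05) and Timd4 (-0.87) were not. Of 7 measured lipid-associated macrophage markers 5 were, with a median of at least 2.73, since 2 of them were below background in control. The summed relative signal of the 10 markers was 108.6 in control, 213.2 in HFHFr-F, 195.2 in HFHFr-FA, 137.1 in HFHFr-N and 101.9 in HFHFr-NA. Most of it in HFHFr-F was Lyz2 (82.3), Cd5l (64.7) and Marco (37.7). In HFHFr-FA against HFHFr-F, Timd4 (1.08), Clec4f (0.66), Vsig4 (0.61) and Csf1r (0.49) had ratios above 0, and the rest of the 10 markers had ratios below 0. The summed relative signal of the 8 lipid-associated markers was 77.0, 128.5, 84.7, 88.1 and 93.6 in the same order of groups. Most of that sum was Ctsd, which read 67.6, 92.7, 69.1, 78.4 and 82.9. The median log2 ratio to control of the measured lipid-associated markers was at least 0.99 in HFHFr-FA, 0.25 in HFHFr-N and 0.51 in HFHFr-NA. All 10 markers were well above background on each array, and so were 5 of the 8 lipid-associated ones in control and 7 in HFHFr-F. Their part in the values of Soat1 and Abcg1 was not tested, and in pooled tissue more cells of a type and more RNA per cell cannot be told apart. The 8 hepatocyte markers summed to 3319 in control and 2634 in HFHFr-F, a log2 ratio of -0.33, and 2 of the 8, Tat (-1.26) and Serpina1c (-1.44), were at least 2-fold lower. Of the other lists, 2 of 5 measured stellate cell markers and 2 of 4 cholangiocyte markers were at least 2-fold higher in HFHFr-F than in control, and 0 of 5 endothelial and 0 of 3 erythroid markers were.

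**Figure D4:**
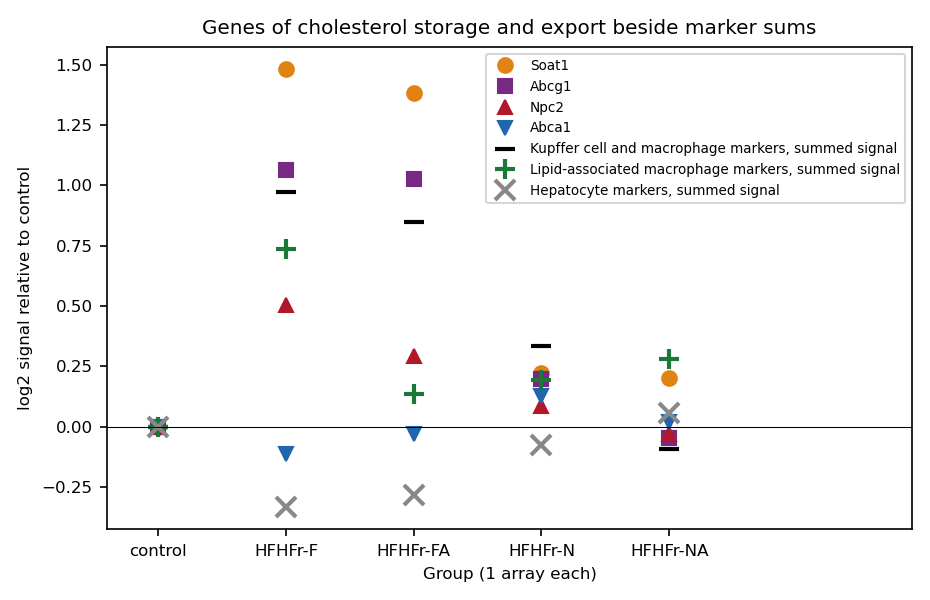
Log2 signal relative to control (vertical axis) of Soat1, Abcg1, Npc2 and Abca1 and of 3 summed marker lists in each group (horizontal axis, 1 array each). Soat1 (1.48 and 1.39) and Abcg1 (1.06 and 1.03) lie with the summed Kupffer cell and macrophage markers (0.97 and 0.85) in HFHFr-F and HFHFr-FA, and Abca1 (-0.11 and -0.03) does not. Lyz2, Cd5l and Marco make up most of the macrophage sum in HFHFr-F. The summed lipid-associated markers are at 0.74 and 0.14. Most of their sum is Ctsd (0.46 and 0.03), and the median ratio of the measured ones is at least 2.73 and at least 0.99.

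Neighbouring branches of the pathway were listed by name. Of 8 matched genes that process SREBP, such as the protease gene Mbtps1, 6 were measured in HFHFr-F against control and 0 were at least 2-fold apart. The same held for 8 of 10 genes of the isoprenoid branches, which lead to dolichol, ubiquinone and prenylated proteins. Among 12 measured genes of other cholesterol handling 1 was at least 2-fold higher, Pltp, the phospholipid transfer protein. Tmem97 (0.92) and Lipc (-0.98) were just under 2-fold. Ch25h had a ratio of at least 0.98, a bound because it was below background in control, so it may have passed 2-fold. Pltp is also a target of the liver X receptors, and it read 0.909 in control, 2.75 in HFHFr-F, 1.02 in HFHFr-FA, 1.31 in HFHFr-N and 0.852 in HFHFr-NA. HFHFr-F was its only high pool, unlike Abcg1, with a ratio to control of 1.60 and a ratio of HFHFr-FA to HFHFr-F of -1.43.

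The fatty acid genes driven by the related factor SREBP1 are set beside the sterol enzymes. In HFHFr-F against control 3 of 8 were at least 2-fold higher, where 5.46% of all measured genes were. They were Thrsp at 5.07, Srebf1 at 1.93 and Fasn at 1.04. Under 2-fold were Scd1 (0.55), Acaca (0.37), Acly (0.15), Me1 (0.12) and Elovl6 (-0.62). The median was 0.46, beside 0.63 over the 19 enzymes. In HFHFr-FA against HFHFr-F 3 of the 8 were at least 2-fold lower, where 2.87% of all measured genes were. They were Thrsp (-3.77), Scd1 (-3.03) and Srebf1 (-1.21), and the median of the 8 was -0.77, beside -0.40 over the 19 enzymes. In HFHFr-N against control Srebf1 (1.73) and Thrsp (1.70) were at least 2-fold higher, where 1.17% of all measured genes were. The median of the 8 was -0.14, beside -0.19 over the enzymes. The difference between the sets was not tested.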

How the data were processed

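Per the labels, liver RNA pooled from 5 mice per group was labelled with Cy3 and put on 5 Agilent whole mouse genome arrays, 1 per group. Per the file headers, Feature Extraction 10.5.1.1 gave the deposited processed intensity, made with spatial and multiplicative detrending switched on and background correction switched off, its error, and the mean and background intensity. Probe positions are mm9, per the file headers. The authors' deposited values equal the processed signal divided by 1 constant per array, a linear ratio (166.9 to 214.7), found by setting it against the scanner values. Its scale, centring and direction were thereby settled, and its medians over the 43379 non-control spots were 0.0787 in control, 0.0751 in HFHFr-F, 0.0804 in HFHFr-FA, 0.0814 in HFHFr-N and 0.0817 in HFHFr-NA.

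The 75th percentile of non-control spots was 172.2 to 222.6 in signal, 46.7% to 49.4% of spots were well above background, and 0 were saturated. Between 60 and 96 outlier spots per array were left out. The signal was divided by its array's 75th percentile, and its log2 was averaged over spots of a probe, and each gene name took its brightest probe. A gene entered a comparison when well above background on either array, and a ratio is only a bound where one of the arrays is below background. Spots of probes printed at least 10 times had a median SD of 0.0725 to 0.0892 (log2), which covers 1 array only. Another probe was said to differ if it lay over 1.0 away, or at least 0.5 to the other side of 0. No test was possible with 1 array per group, and the number of arrays limits the precision. The ratio calculation was tested on simulated data. Members, lists and the naming rule (all 34 members in all 7 comparisons) were chosen with earlier results of these data known. The rule for printing promoters, members at least 2-fold higher in HFHFr-F with a match to TCACNCCAC, selected 0 genes. Python 3.11.15, pandas 2.3.3 and limma 3.58.1 were used, and 9 alternatives were tried.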

Additional observations from a re-analysis of the deposited data

How the results depend on the processing

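No paired analysis was possible because each group was 1 array, and no result could be recomputed without a replicate. Of 9 alternatives, the normexp one added a constant of 50 to every signal. The count of the 34 genes at least 2-fold apart was recomputed under each of the 9. With normexp background correction it was 4 higher in HFHFr-F against control (8 in the main setting), 6 lower in HFHFr-N against HFHFr-F (10), 1 higher in HFHFr-FA against control (5), 0 higher in HFHFr-NA against HFHFr-N (2) and 1 higher in HFHFr-FA against HFHFr-F (0). In the same setting 327 and 153 of all genes were higher and lower in HFHFr-F against control, against 788 and 464, and 83 and 192 in HFHFr-N against HFHFr-F, against 317 and 538. The counts of all genes were likewise lower with normexp in the other comparisons: 46 and 31 (168 and 118) in HFHFr-N against control, 123 and 170 (400 and 423) in HFHFr-FA against HFHFr-F, 45 and 45 (225 and 199) in HFHFr-NA against HFHFr-N, 181 and 85 (656 and 286) in HFHFr-FA against control, and 59 and 63 (293 and 210) in HFHFr-NA against control. Without the detection filter 1551 and 1532 genes were higher and lower in HFHFr-F against control, where dim probes enter, and the 34 genes were not touched by it. The 1 gene lower in HFHFr-FA against HFHFr-F became 2 with median centring, and 0 with quantile normalization and with cyclic loess, and quantile normalization gave 1 higher. Median centring gave 1 lower in HFHFr-N against control and 1 lower in HFHFr-NA against control, and cyclic loess 1 lower in HFHFr-NA against control. With the mean of all probes 1 gene, Npc1, was lower in HFHFr-F against control and 1 in HFHFr-FA against control, its second probe being below background on all arrays. The median over the 34 genes ranged from 0.35 to 0.55 in HFHFr-F against control, and medians kept their sign in 6 of the 7 comparisons. In HFHFr-NA against control the median, 0.03, ranged from -0.03 to 0.04. Of 26 ratios of single genes past 2-fold, 9 stayed past it under every alternative that gave a value, among them those of Sqle (1.93 to 2.46), Fdps and Sc4mol in HFHFr-F against control, and none turned its sign. Ratios close to 2-fold, as for Dhcr7, Idi1, Hmgcs1, Lss, Fdft1 and Insig2, passed it in some settings. The split of all 2-fold genes in HFHFr-F against control was 62.9% higher, and 74.5% after cyclic loess; in HFHFr-FA against HFHFr-F it was 48.6%, and 35.2% after median centring; in HFHFr-N against HFHFr-F it was 37.1%, and 24.2% after cyclic loess. The causes were not tested.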
